A study of Saccharomyces cerevisiae with 6 samples.

Results

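The genes of amino acid synthesis in *Saccharomyces cerevisiae* and *GCN4*, the gene of the transcription activator that switches on most of them under amino acid starvation, form a set of 47 of the 6277 genes listed. Members were taken by their systematic names from the synthesis pathways of arginine, histidine, lysine, leucine, isoleucine and valine, the aromatic amino acids and threonine, together with *GCN4*. The rule uses no measured value, but the set was chosen with earlier results of these data known. Of the 47 members, 3 are also strain or plasmid markers (*HIS3*, *LEU2* and *LYS2*) and are described apart, which leaves 44. All 47 were listed and all passed the filter on low values, and their reads per library lay between 93 for *HIS6* and 135101 for *LEU1*.

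Total RNA depleted of ribosomal RNA was sequenced from 3 strains, with 2 libraries of each, to ask which transcripts depend on the Rrp6 protein and which on its exoribonuclease activity. Rrp6 is the nuclear 3′ to 5′ exoribonuclease bound to the RNA exosome. Every strain was derived from 1 haploid parent of the BY4741/BY4743 background (*his3Δ1 leu2Δ0 ura3Δ0 met15Δ0*) that lacked chromosomal *RRP6* and *MTR4*, the gene of the exosome's helicase partner, and carried *MTR4* on both pRS416 and pRS415. WT had *RRP6* on pRS413 in addition, Rrp6exo- had the allele *RRP6* D238N, whose product lacks exonuclease activity, and *rrp6Δ* had the empty pRS413. The *RRP6* alleles were thus read from a plasmid behind a short stretch of their own promoter, and the reference strain was a complemented deletion. Each library came from its own clone, grown in SD medium without histidine, leucine and uracil at the same temperature to mid-log phase. These were bulk cultures, in which less RNA per cell and fewer expressing cells cannot be told apart.

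Yeast makes every amino acid of protein from intermediates of carbon metabolism, and the genes of the separate pathways answer to a common activator. Gcn4 is made mainly by translational control: short upstream reading frames hold back its synthesis in fed cells, and the kinase Gcn2, sensing uncharged tRNA, relieves that block. Single pathways have regulators of their own as well, such as Leu3 for branched-chain, Lys14 for lysine and the ArgR-Mcm1 complex for arginine genes.

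Between 34188755 and 39501874 reads were counted on genes in each library. *RRP6* had scaled counts of 19502.9 and 21626.0 in WT, 18537.7 and 21173.3 in Rrp6exo- and 4.2 and 8.3 in *rrp6Δ*. The low values in *rrp6Δ* match its label, but counts per gene cannot show the substitution in Rrp6exo-. A scaled count is a gene's read count divided by a size factor of its library. Alpha mating-type genes were abundant in all 6 libraries, as with *STE3* at 16122 to 26836, whereas the a-type receptor gene *STE2* lay between 324 and 408.

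The synthesis genes were among the more abundant messages of these cultures. Per kilobase of coding sequence, the median level of the 44 members in WT was 9939 scaled counts, against 1579 for all 5730 coding genes that could be matched. The order was led by *ILV5* at 72218, *LEU1* at 51164, *BAT1* at 38891 and *ARG1* at 34600 scaled counts per kilobase, all enzymes of branched-chain or arginine synthesis. *GCN4* stood close to *LEU4*, at 29050 against 29166 scaled counts per kilobase, and the ranges of their WT libraries overlapped. Only *TRP1* (1518) and *HIS6* (167) lay below the median of all coding genes. The table also lists YIL020C-A beside *HIS6* and YDR008C beside *TRP1*, IDs outside the annotation used here, so any overlap with these genes was not examined.

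**Figure D1:**
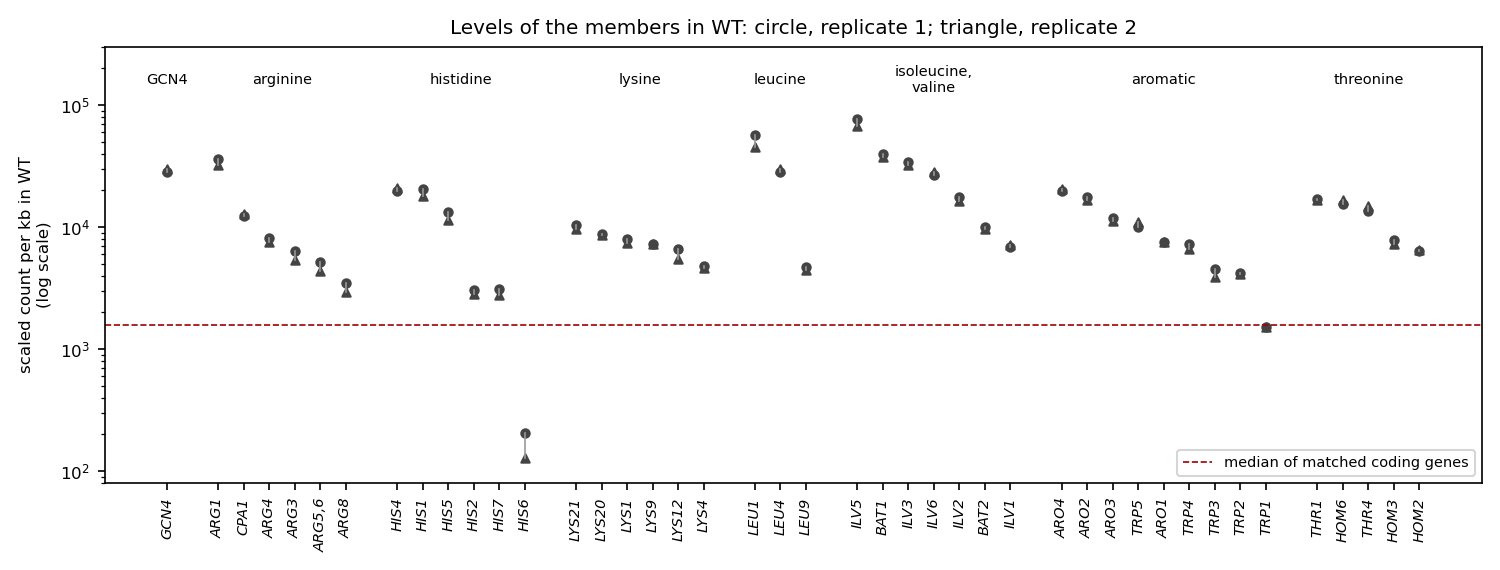
Scaled counts per kilobase of coding sequence in both WT libraries (log scale) for 43 members, ordered by level within each pathway. Circles are replicate 1 and triangles replicate 2, and the dashed line is the median of all matched coding genes, 1579. *ILV5* is the highest member and *HIS6* the lowest.

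With Rrp6 absent, the synthesis genes were mostly somewhat less abundant relative to other genes than in WT, with isoleucine and valine synthesis lowest, whereas with Rrp6 inactive the set as a whole stayed near WT and the medians of its pathways lay on both sides of 0. In *rrp6Δ*, 35 of the 44 members had a log2 fold change below 0 (23 after scaling each library to the same total). Before that scaling 48.9% of all genes were below 0, and the members' median was -0.16 against 0.0053 over all genes. In Rrp6exo- the median of the members was -0.01 against 0.01 over all genes. With that other scaling the median of all genes moved to 0.16 in *rrp6Δ* and 0.12 in Rrp6exo-, that of the members came to -0.0027 and 0.098, and the members stayed 0.16 and 0.02 below all genes.

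Without a term for the replicate number, limma called 0 of the 44 members in either mutant, with 0.175% of all genes called in *rrp6Δ* and 0.112% in Rrp6exo-. At an unadjusted p under 0.05, 12 members passed in *rrp6Δ* (27.3%, against 16.6% of all genes) and 11 in Rrp6exo- (25%, against 17%). edgeR called 0 in both (0.175% and 0.0956% of all genes) and DESeq2 called 6 and 4 (8.03% and 8.28%). Libraries of the same replicate number deviated together, so the replicate number was also fitted as a block, and "rose" and "fell" below stand for an adjusted p under 0.05 in that blocked limma fit. With the block, 8 members fell in *rrp6Δ* (18.2%, where 6.04% of all genes fell) and 0 rose (5.43% of all genes). These were *ILV1*, *ILV5*, *ILV6*, *BAT1*, *LYS9*, *TRP5*, *ARO1* and *HOM3*. In Rrp6exo-, 3 rose (*CPA1*, *HIS5* and *LYS1*, where 5.7% of all genes rose) and 3 fell (*ILV5*, *BAT2* and *HOM6*, where 7.04% fell), shares close to those of all genes. Counted in either direction, 11.5% of all genes passed in *rrp6Δ* and 12.7% in Rrp6exo-. edgeR with the block called 8 and 7 members (11.4% and 12.7% of all genes) and DESeq2 with the block 13 and 9 (12.7% and 13.2%).

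The count of calls moved with single libraries, and so did that of all genes. Where a library of the strains compared was left out, its strain had 1 library, assumed to vary like the others. In *rrp6Δ*, 0 of the 44 passed with the block once either WT library (2.79% and 2.09% of all genes) or either *rrp6Δ* library (0.303% and 0.191%) was left out, and 23 passed without either Rrp6exo- library (34.8% and 34.7%). In Rrp6exo-, 0 and 1 passed without WT replicate 1 and 2 (3.41% and 2.92%), 9 and 16 without Rrp6exo- replicate 1 and 2 (20.9% and 27.6%), and 2 without either *rrp6Δ* library (6.21% and 6.32%). The fold change of *ILV5* in *rrp6Δ* lay between -0.75 and -0.36 on the log2 scale over all fits that left out 1 library. With the block and every library scaled to the same total, *ILV1*, *ILV6*, *LYS9* and *HOM3* no longer passed in *rrp6Δ*, nor *BAT2* in Rrp6exo-. Both comparisons use the same WT libraries.

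**Figure D2:**
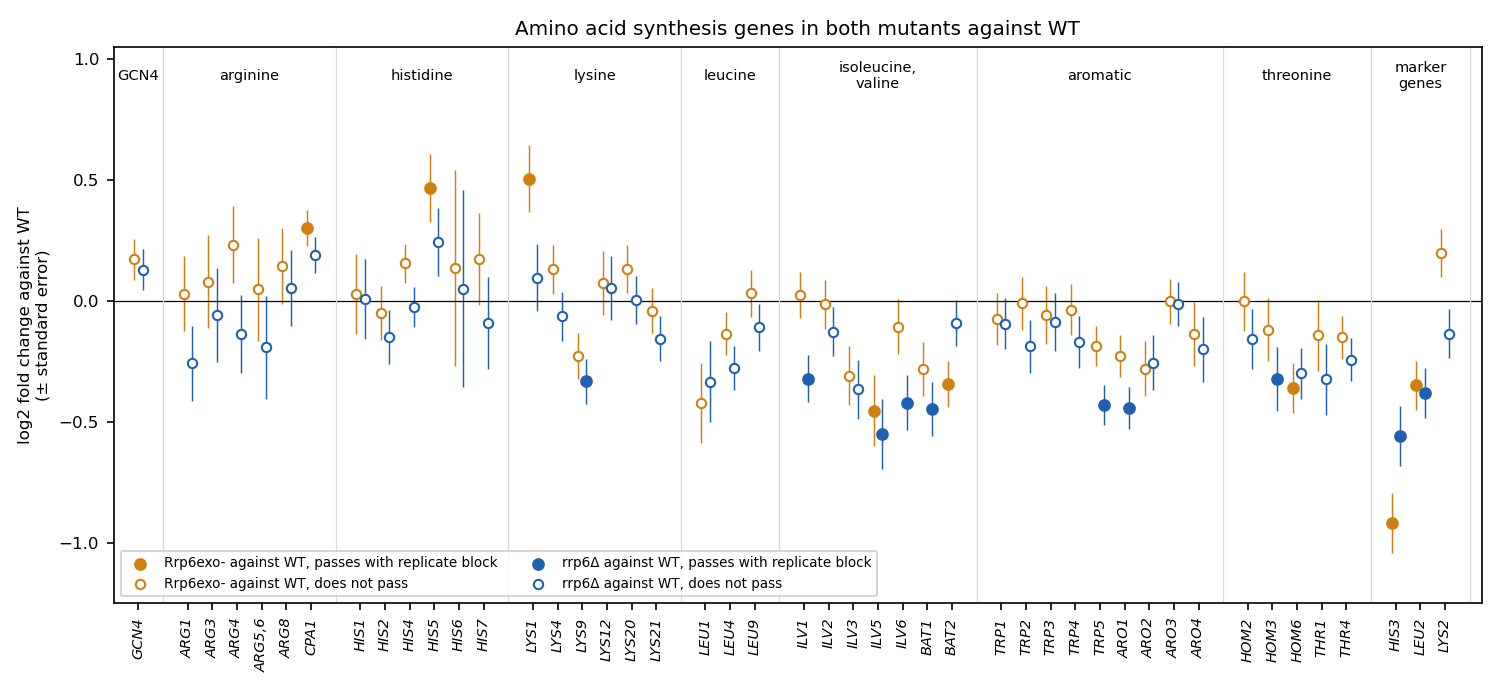
Log2 fold changes of 46 members against WT, with standard errors of the limma fit without a replicate block, grouped by pathway. Orange stands for Rrp6exo-, blue for *rrp6Δ*, and filled points have an adjusted p under 0.05 once the replicate block is fitted. Among the 7 pathways the isoleucine and valine group lies lowest, with *ILV5* at -0.45 and -0.55, the marker *HIS3* lies lower still at -0.92 and -0.56, and *LYS1* (0.50) and *HIS5* (0.47) are highest, both in Rrp6exo-.

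Complete separation of the libraries gave a count without a model. Both *rrp6Δ* libraries lay below both WT libraries for 23 members (24.9% of all genes) and above them for 2 (25.1%). For Rrp6exo-, 13 members lay below (23.5%) and 8 above (21.7%). All 4 mutant libraries lay below both WT libraries for 13 members (*LEU1*, *LEU4*, *ILV3*, *ILV5*, *BAT1*, *BAT2*, *LYS9*, *TRP1*, *TRP5*, *ARO1*, *ARO2*, *HOM6* and *THR4*, where 16.3% of all genes did) and above them for *GCN4* and *CPA1* (13.7%).

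*GCN4* (YEL009C, chrV:138918-139763 of R64, minus strand) was slightly more abundant in both mutants, but by less than the test could call. Its scaled counts were 23989.9 and 25162.2 in WT, 26278.9 and 29160.4 in Rrp6exo- and 26589.3 and 27114.0 in *rrp6Δ*. All 4 mutant values were above both WT values. The log2 fold change was 0.17 in Rrp6exo- and 0.13 in *rrp6Δ*, with adjusted p = 0.168 and 0.294 in limma with the block and 95% intervals of -0.01 to 0.35 and -0.05 to 0.31. Scaled to the same total, *GCN4* passed with the block in limma in both, at 0.28 (adjusted p = 0.026) and 0.28 (adjusted p = 0.0249). That scaling also moved the median of all genes to 0.12 in Rrp6exo- and 0.16 in *rrp6Δ*, so these values include a shift shared by all genes. These are message levels and do not measure the Gcn4 protein.

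The motif that Gcn4 binds, TGACTCA or its reverse complement TGAGTCA, was looked up on both strands within 500 bases before each start codon in the RefSeq R64 genome. It was present for 26 of the 44 members (59.1%) and for 238 of 5712 coding genes (4.17%). All 7 arginine and all 3 leucine genes had it, as did 4 of 6 histidine, 4 of 7 isoleucine and valine, 4 of 9 aromatic, 3 of 5 threonine and 1 of 6 lysine genes. A match is a description of these letters, not a site shown to be bound. The matches before the genes that passed in either mutant are given here with the motif in capitals and 10 bases on each side, read on the coding strand of the gene, together with that of *HIS4*, a classical Gcn4 target.

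HIS4, chrIII:68516-68542, minus strand: ccatgcacagTGACTCAcgttttttta
CPA1, chrXV:882405-882431, plus strand: gaagggtgttTGACTCAtcatcgcatc
HIS5, chrIX:142716-142742, plus strand: ttggatctgtTGACTCActtcaattga
LYS1, chrIX:420970-420996, minus strand: actaagtcgaTGAGTCAaaaaagactc
ILV5 first match, chrXII:839548-839574, minus strand: tggctgtcagTGACTCAtccgcgtttc
ILV5 second match, chrXII:839377-839403, minus strand: tgacctaactTGACTCAatggctttta
ILV6, chrIII:105682-105708, minus strand: accgttatcgTGACTCActttctttcg
BAT1, chrVIII:517351-517377, plus strand: tgccttcttaTGACTCAaaattctatt
ARO1, chrIV:704251-704277, plus strand: gtcatgcataTGACTCAtcccgaacat
HOM3, chrV:258225-258251, minus strand: ttcaggcccaTGACTCAccttttcttt

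All 3 members that rose in Rrp6exo- had the motif, as did 1 of the 3 that fell there (*ILV5*) and 5 of the 8 that fell in *rrp6Δ*. In *rrp6Δ* the 26 members with it had a median log2 fold change of -0.19 and the 18 without it -0.14. In Rrp6exo- the medians were 0.01 and -0.04.

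The arginine genes stayed near WT in Rrp6exo-, where all 7 log2 fold changes were above 0 with a median of 0.08, and in *rrp6Δ* had a median of -0.14, or 0.02 after scaling to the same total. *CPA1* (YOR303W, chrXV:882899-884134, plus strand) encodes the small subunit of the carbamoyl phosphate synthetase of arginine synthesis, and its message carries an upstream reading frame through which arginine represses it. Its scaled counts were 15380.3 and 15956.2 in WT, 19019.5 and 19606.8 in Rrp6exo- and 18373.3 and 17349.1 in *rrp6Δ*, all 4 mutant values above both WT values. *CPA1* rose in Rrp6exo- to 123% of WT (log2 0.30, SE 0.07, limma adjusted p = 0.0386 with the block). In *rrp6Δ* it stood at 114% of WT and did not pass (log2 0.19, adjusted p = 0.127).

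Neither the argininosuccinate synthetase gene *ARG1*, the most abundant arginine gene, nor *ARG3*, *ARG4*, *ARG5,6* and *ARG8* passed in either mutant. The log2 fold changes of these 5 genes lay between -0.26 and 0.05 in *rrp6Δ* and between 0.03 and 0.23 in Rrp6exo-.

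Histidine synthesis had a single gene that passed, *HIS5* (YIL116W, chrIX:142928-144085, plus strand), which encodes histidinol-phosphate aminotransferase. It had 15482.5 and 13150.9 scaled counts in WT, 21226.6 and 18323.9 in Rrp6exo- and 18650.5 and 15300.7 in *rrp6Δ*. Replicate 1 was the higher one in every strain, and within each replicate number both mutants were above WT. *HIS5* rose in Rrp6exo- to 138% of WT (log2 0.47, SE 0.07, limma adjusted p = 0.00994 with the block). In *rrp6Δ* it was at 119% (log2 0.24, adjusted p = 0.0616 with the block and 0.0136 with the block and scaling to the same total). That scaling moved the median of all genes in *rrp6Δ* to 0.16.

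The multifunctional enzyme gene *HIS4* had 47918.9 and 50458.5 scaled counts in WT, 55328.4 and 54141.8 in Rrp6exo- and 50214.8 and 46595.7 in *rrp6Δ*. The Rrp6exo- libraries were both above WT, at a log2 difference of 0.16 that passed with the block in limma only after scaling to the same total. The median of all genes in Rrp6exo- was 0.12 under that scaling. *HIS1*, the first enzyme of the pathway, was level with WT at 0.03 in Rrp6exo- and 0.01 in *rrp6Δ*. *HIS2* and *HIS7* did not pass, with log2 fold changes between -0.15 and 0.17 over both mutants. *HIS6* had so few reads, with scaled counts of 96.6 to 203.0 over the 6 libraries, that its 95% intervals were the widest of the set.

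Lysine synthesis held the largest log2 fold change of the 44 members in Rrp6exo-, that of *LYS1* (YIR034C, chrIX:419615-420736, minus strand), and a gene that fell in *rrp6Δ*, *LYS9* (YNR050C). They encode the saccharopine dehydrogenases of the last step and of the step before it. *LYS1* had 8992.7 and 8320.2 scaled counts in WT, 13255.1 and 11368.3 in Rrp6exo- and 10357.5 and 8251.8 in *rrp6Δ*. Both Rrp6exo- libraries stood above all others, and *LYS1* rose there to 142% of WT (log2 0.50, SE 0.07, limma adjusted p = 0.0101 with the block). In *rrp6Δ* the difference was 0.10 (adjusted p = 0.419) and changed sign to -0.07 without replicate 1 of that strain.

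*LYS9* had 9856.1 and 9709.3 scaled counts in WT, 7854.9 and 8867.0 in Rrp6exo- and 8131.5 and 7415.6 in *rrp6Δ*, all 4 mutant values below WT. It fell in *rrp6Δ* to 79.5% of WT (log2 -0.33, SE 0.09, adjusted p = 0.0464 with the block). In Rrp6exo- it was at 85.5% (log2 -0.23, adjusted p = 0.11). The homoaconitase gene *LYS4*, the homoisocitrate dehydrogenase gene *LYS12* and the homocitrate synthase genes *LYS20* and *LYS21* did not pass, with log2 fold changes between -0.16 and 0.13. *LYS20* and *LYS21* are 91.9% identical in coding sequence and share 468 stretches of 50 bases, so the split of reads between them is uncertain.

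A motif of the lysine regulator Lys14, TCCNNNGGA, was present on either strand within 500 bases of the start codon for 4 of the 6 lysine genes (*LYS1*, *LYS9*, *LYS12* and *LYS21*) and for 6.04% of all coding genes. This motif and that of Leu3 below were added after the values had been seen. The matches of the pair of genes that passed are shown because one rose in Rrp6exo- and the other fell in *rrp6Δ*, with the motif in capitals.

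LYS1, chrIX:420914-420942, minus strand: atttttttttTCCAGCGGAatttggaatt
LYS9 first match, chrXIV:715595-715623, minus strand: gaatcgaaatTCCGTTGGAaaaattcgct
LYS9 second match, chrXIV:715533-715561, minus strand: attgagaattTCCAATGGAattatcagca

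For *LYS14* itself, 4874.0 and 4987.7 scaled counts were counted in WT against 5678.9 and 5811.9 in Rrp6exo- and 6082.8 and 5545.0 in *rrp6Δ*, values above WT in every mutant library but not past the threshold (log2 0.22 and 0.24).

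Isoleucine and valine synthesis was the lowest group in both mutants under each scaling tried. Over the 7 isoleucine and valine genes the log2 fold changes had a median of -0.37 in *rrp6Δ*, where all 7 were below 0 (5 after scaling to the same total), and of -0.28 in Rrp6exo-, where 6 were (4 after that scaling). For the 3 leucine genes the medians were -0.28 and -0.14. With the block, 4 of the 7 isoleucine and valine genes fell in *rrp6Δ* (6.04% of all genes fell) and 2 in Rrp6exo- (7.04%). None of the leucine genes passed. The isoleucine and valine group is set apart here because its values were the lowest, so its count is no test.

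*ILV5* (YLR355C, chrXII:838066-839253, minus strand) encodes the mitochondrial acetohydroxyacid reductoisomerase, shared by isoleucine, valine and leucine synthesis, and was the only one of the 44 members that fell in both mutants. Its scaled counts were 90788.9 and 80801.9 in WT, 62757.8 and 62308.7 in Rrp6exo- and 66928.1 and 51064.7 in *rrp6Δ*. The lowest WT library was above the highest mutant library. It stood at 72.9% of WT in Rrp6exo- (log2 -0.45, SE 0.12, limma adjusted p = 0.0457 with the block) and at 68.8% in *rrp6Δ* (log2 -0.55, SE 0.12, adjusted p = 0.0304). It also passed in both with the block and scaling to the same total, at -0.34 and -0.40. DESeq2 with the block called *LEU1*, *ILV3*, *BAT1* and *HOM6* lower in both mutants as well.

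*BAT1* (YHR208W) and *BAT2* (YJR148W) encode the mitochondrial and the cytosolic branched-chain aminotransferase. In limma with the block each passed in a different mutant. Scaled counts of *BAT1* were 47099.7 and 44839.7 in WT, 37545.5 and 38013.9 in Rrp6exo- and 37196.9 and 30556.9 in *rrp6Δ*. It fell in *rrp6Δ* to 73.7% of WT (log2 -0.45, SE 0.10, limma adjusted p = 0.033 with the block), and in Rrp6exo- its adjusted p was 0.0954 at a log2 fold change of -0.28. *BAT2* had 11255.8 and 11032.9 scaled counts in WT, 8117.2 and 9488.1 in Rrp6exo- and 10543.0 and 10384.4 in *rrp6Δ*. It fell in Rrp6exo- to 79% of WT (log2 -0.35, SE 0.08, adjusted p = 0.0374). In *rrp6Δ* it was at 93.9% (log2 -0.09, or 0.06 after scaling to the same total), and between the mutants themselves *BAT2* did not pass (adjusted p = 0.232).

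Threonine deaminase, the entry to isoleucine synthesis, is encoded by *ILV1* (YER086W), and *ILV6* (YCL009C) encodes the regulatory subunit of acetolactate synthase. *ILV1* had 11961.1 and 12339.9 scaled counts in WT, 12825.7 and 11893.9 in Rrp6exo- and 10430.4 and 9054.7 in *rrp6Δ*. *ILV6* had 25139.2 and 26471.3 in WT, 22256.3 and 25767.8 in Rrp6exo- and 20748.3 and 17863.0 in *rrp6Δ*. For both genes the *rrp6Δ* libraries were the lowest pair, and both fell there, *ILV1* to 80.2% of WT (log2 -0.32, SE 0.08, limma adjusted p = 0.0422 with the block) and *ILV6* to 74.8% (log2 -0.42, SE 0.11, adjusted p = 0.0455). In Rrp6exo- the log2 fold changes were 0.02 and -0.11. The difference between the mutants did not pass for either gene (adjusted p = 0.158 and 0.242).

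The catalytic subunit gene of acetolactate synthase, *ILV2*, stood apart from its partner *ILV6*. It had 36167.1 and 33864.0 scaled counts in WT, 36007.8 and 33383.0 in Rrp6exo- and 34417.6 and 29840.2 in *rrp6Δ*, with overlapping strains and log2 fold changes of -0.01 and -0.13. The dihydroxyacid dehydratase gene *ILV3* had all 4 mutant libraries below WT but did not pass, at -0.31 in Rrp6exo- and -0.37 in *rrp6Δ* (limma adjusted p = 0.0909 and 0.0651 with the block).

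**Figure D3:**
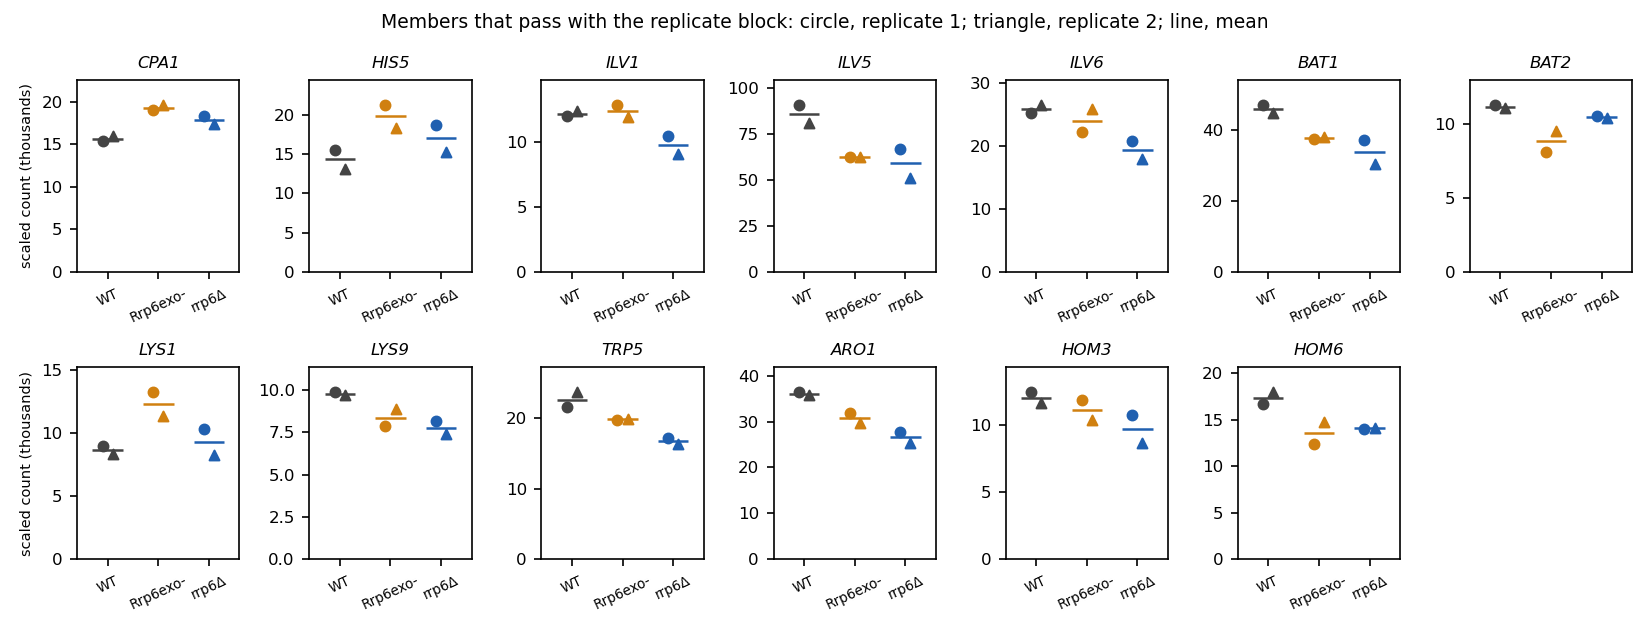
Scaled counts, divided by 1000, of the 13 members that passed with the replicate block in either mutant, for each of the 6 libraries. Circles are replicate 1, triangles replicate 2 and lines the means, and every axis starts at 0. In *ILV5* all 4 mutant libraries lie below both WT libraries, and in *LYS1* both Rrp6exo- libraries lie above the rest.

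Among the leucine genes, *LEU1* (YGL009C), encoding isopropylmalate isomerase, had the most reads of the whole set. Scaled counts were 132705 and 106740 in WT, 94591.4 and 83440.4 in Rrp6exo- and 106302 and 83870 in *rrp6Δ*. The lower WT library exceeded the highest mutant library by under 1%, and replicate 2 was the lower one in every strain. *LEU1* stood just outside the threshold in Rrp6exo- (log2 -0.42, SE 0.11, limma adjusted p = 0.0502 with the block) and further from it in *rrp6Δ* (log2 -0.33, adjusted p = 0.0931). The isopropylmalate synthase genes *LEU4* and *LEU9*, 81.2% identical in coding sequence, had log2 fold changes of -0.28 and -0.11 in *rrp6Δ* and of -0.14 and 0.03 in Rrp6exo-.

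Leu3 is the zinc-cluster factor that activates branched-chain genes when the leucine precursor isopropylmalate is present, and it binds a pair of CCGG with NN, any 2 bases, between them. On either strand within 500 bases of the start codon, this motif occurred for 4 of the 44 members (*LEU1*, *ILV2*, *ILV5* and *BAT1*), for the marker *LEU2* and for 16 of 5712 coding genes (0.28%). The matches are shown because these members include the most abundant of the set and the one that fell in both mutants, with the motif in capitals.

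LEU1, chrVII:478850-478879, minus strand: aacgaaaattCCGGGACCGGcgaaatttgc
ILV2, chrXIII:483606-483635, plus strand: ccggagcctgCCGGTACCGGcttggcttca
ILV5, chrXII:839611-839640, minus strand: gcggtctcctCCGGTACCGGttctgccacc
BAT1, chrVIII:517375-517404, plus strand: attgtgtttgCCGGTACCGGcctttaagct
LEU2, chrIII:91116-91145, plus strand: ggtgagagcgCCGGAACCGGcttttcatat

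The 4 members with the motif had a median log2 fold change of -0.39 in *rrp6Δ* and -0.35 in Rrp6exo-, against -0.15 and -0.002 for the other 40. But *ILV2*, with the same letters as *ILV5* and *BAT1*, was near WT. All 4 are branched-chain genes, and the motif was looked up after these values had been seen. The split is therefore a description and no test, and a role of Leu3 was not tested. *LEU3* itself had 2829.9 and 2627.5 scaled counts in WT, 3938.2 and 3466.4 in Rrp6exo- and 3625.5 and 3433.7 in *rrp6Δ*. It rose in both mutants (log2 0.44 and 0.37, limma adjusted p = 0.0121 and 0.0212 with the block).

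In aromatic synthesis all 9 genes had a log2 fold change below 0 in both mutants, though only 6 in *rrp6Δ* and 4 in Rrp6exo- after scaling to the same total, and the pair that passed did so in *rrp6Δ*. *ARO1* (YDR127W) encodes the pentafunctional arom enzyme, which carries out the central steps of the shikimate pathway. It had 36384.1 and 35838.5 scaled counts in WT, 31970.5 and 29754.6 in Rrp6exo- and 27814.8 and 25334.2 in *rrp6Δ*. The strains did not overlap, with Rrp6exo- in between. *ARO1* fell in *rrp6Δ* to 73.6% of WT (log2 -0.44, SE 0.08, limma adjusted p = 0.02 with the block), and in Rrp6exo- it was at 85.5% (log2 -0.23, adjusted p = 0.0954).

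*TRP5* (YGL026C), the tryptophan synthase gene, had the same order of strains. Its scaled counts were 21466.5 and 23619.2 in WT, 19763.6 and 19830.2 in Rrp6exo- and 17130.1 and 16284.1 in *rrp6Δ*, where it fell to 74.1% of WT (log2 -0.43, SE 0.08, limma adjusted p = 0.0209 with the block). In Rrp6exo- it was at 87.8% (log2 -0.19, adjusted p = 0.153). For neither gene did the mutants differ from each other past the threshold (adjusted p = 0.267 and 0.232). The chorismate synthase gene *ARO2* was at -0.28 in Rrp6exo- and -0.26 in *rrp6Δ*, and did not pass. The DAHP synthase gene *ARO3*, 69.8% identical to *ARO4*, was the steadiest member, at -0.0019 and -0.013.

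The threonine branch starts from aspartate with *HOM3* (YER052C), *HOM2* and *HOM6* (YJR139C), the genes of aspartate kinase, aspartate semialdehyde dehydrogenase and homoserine dehydrogenase, and ends with *THR1* and *THR4*. All 5 had log2 fold changes below 0 in both mutants, *HOM2* in Rrp6exo- excepted after either other scaling, with a median of -0.30 in *rrp6Δ* and -0.14 in Rrp6exo-. Scaled counts of *HOM3* were 12444.3 and 11631.8 in WT, 11870.8 and 10345.1 in Rrp6exo- and 10723.3 and 8633.3 in *rrp6Δ*. It fell in *rrp6Δ* to 80.4% of WT (log2 -0.32, SE 0.08, limma adjusted p = 0.0368 with the block).

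*HOM6* had 16702.5 and 17951.5 scaled counts in WT, 12380.8 and 14702.8 in Rrp6exo- and 14033.0 and 14088.5 in *rrp6Δ*, all mutant values below WT. It fell in Rrp6exo- to 78.2% of WT (log2 -0.36, SE 0.08, adjusted p = 0.0306 with the block in limma) and lay just outside the threshold in *rrp6Δ* at 81.2% (log2 -0.30, adjusted p = 0.0518). The homoserine kinase gene *THR1* and the threonine synthase gene *THR4* had log2 fold changes of -0.32 and -0.24 in *rrp6Δ* and of -0.14 and -0.15 in Rrp6exo-, and neither passed.

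Set directly against each other, the mutants differed in that most members were somewhat lower in *rrp6Δ*, mainly within replicate 2, and limma called none. In *rrp6Δ*, 40 of the 44 members had a lower mean than in Rrp6exo-, where 49.4% of all genes did. After scaling to the same total 34 members were lower, and after scaling to the same upper quartile 35 were. The members' median log2 difference was -0.13 against 0.0029 over all genes. limma called 0 of the 44 without the block (0.0159% of all genes) and 0 with it (0.0319%). At an unadjusted p under 0.05 without the block 6 members passed (13.6%, against 5.46% of all genes). On the recovered reads edgeR and DESeq2 called 0 (0.0159% and 0.717% of all genes). With the block edgeR called 0 (0.0319%) and DESeq2 3 (1.96%). The largest difference was that of *LYS1*, at -0.41 (adjusted p = 0.106 with the block). Within replicate 1 the median difference was -0.03 and within replicate 2 it was -0.24.

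The libraries of *rrp6Δ* also differed from each other, and clone, culture and library cannot be told apart there. In replicate 2 of *rrp6Δ*, 41 of the 44 members were lower than in replicate 1, with a median log2 difference of -0.20, where 51.5% of all genes were lower and their median was -0.01. The arginine genes differed most, at a median of -0.40. In WT 33 members were lower in replicate 2 (median -0.08) and in Rrp6exo- 24 were (median -0.02). Without replicate 2 of *rrp6Δ* the members' median in that strain against WT was -0.06, and without replicate 1 it was -0.24. RNA integrity was given only as a range over all libraries, and its part was not tested.

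**Figure D4:**
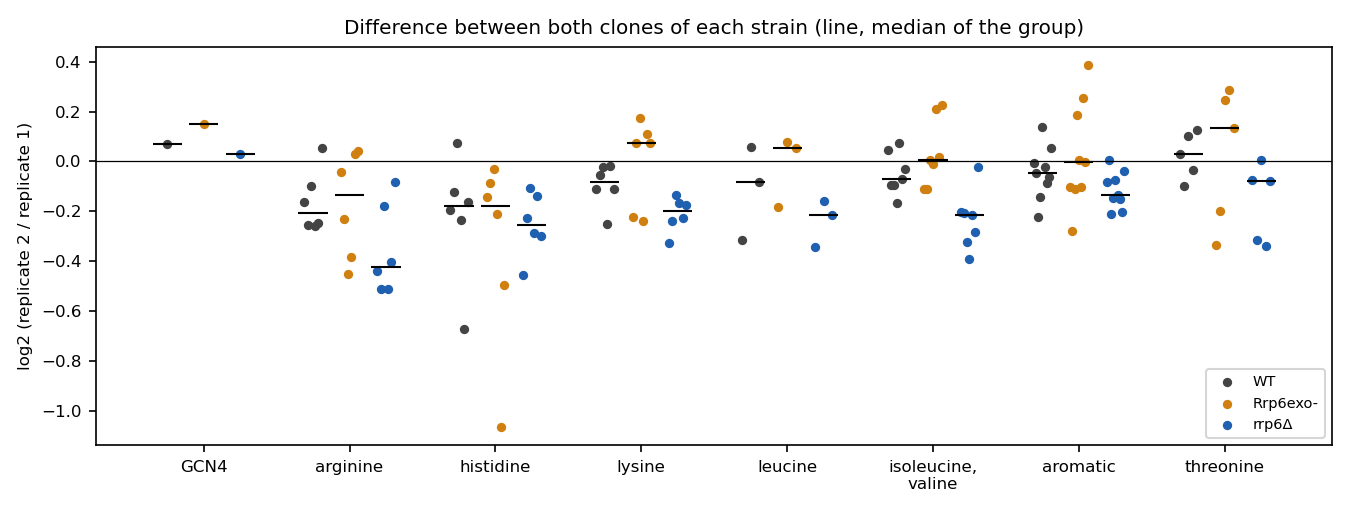
Log2 ratio of replicate 2 to replicate 1 for 43 members, by pathway and strain (WT grey, Rrp6exo- orange, *rrp6Δ* blue), with the median of the genes drawn as a line. In *rrp6Δ* nearly all points lie below 0, and the arginine genes lie lowest.

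The marker genes carry another meaning, since *HIS3* (YOR202W) and *LEU2* (YCL018W) were on the plasmids that the medium selected for, pRS413 and pRS415. *HIS3* had 56110.0 and 46153.9 scaled counts in WT, 25792.3 and 28104.0 in Rrp6exo- and 32581.4 and 36525.2 in *rrp6Δ*. It was lower in both mutants with no overlap, and fell to 52.7% of WT in Rrp6exo- (log2 -0.92, SE 0.12, limma adjusted p = 0.00617 with the block) and to 67.6% in *rrp6Δ* (log2 -0.56, SE 0.12, adjusted p = 0.0303). This was the largest change among the 47 members. pRS413 is also the plasmid whose *RRP6* insert differed between the strains.

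*LEU2*, on pRS415 with *MTR4* in every strain, had 50716.4 and 58895.2 scaled counts in WT, 42295.8 and 43466.4 in Rrp6exo- and 40348.2 and 43657.4 in *rrp6Δ*. It fell to 78.2% in Rrp6exo- and to 76.6% in *rrp6Δ* (limma adjusted p = 0.0456 and 0.0385 with the block), calls that were lost with the block after scaling to the same total. Plasmid copy number and transcription per copy cannot be told apart here. *URA3*, the marker of pRS416, gave 10675.3 and 8263.0 scaled counts in WT against 9281.0 and 6406.1 in Rrp6exo- and 7397.9 and 7313.7 in *rrp6Δ* and did not pass (log2 -0.28 and -0.35).

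The alpha-aminoadipate reductase gene *LYS2* (YBR115C) is deleted in a parent line of the BY4743 background and was present here. It had 21243.5 and 20617.4 scaled counts in WT, 25412.4 and 22658.7 in Rrp6exo- and 20292.9 and 17897.3 in *rrp6Δ*. Its log2 fold changes were 0.20 and -0.14, neither past the threshold (limma adjusted p = 0.12 and 0.261 with the block), and the second turned to 0.02 after scaling to the same total.

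**Figure D5:**
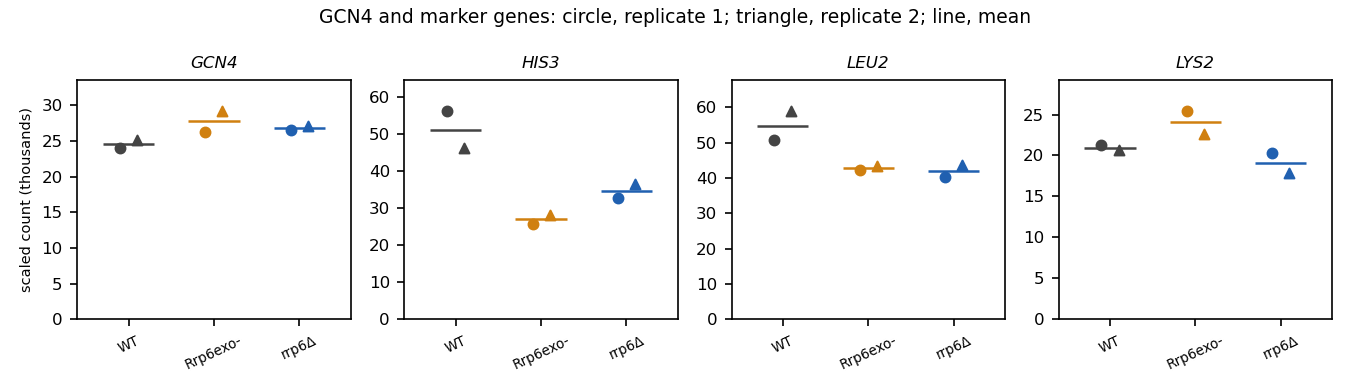
Scaled counts, divided by 1000, of *GCN4* and the 3 marker genes in each of the 6 libraries. Circles are replicate 1, triangles replicate 2 and lines the means. *GCN4* is slightly higher in all 4 mutant libraries, *HIS3* and *LEU2* are lower in all 4, and *LYS2* is not ordered that way.

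Around the members, 21 regulators of these pathways were listed. With the block, 2 of them rose in *rrp6Δ*, *LEU3* and *ARG82* (5.43% of all genes rose). In Rrp6exo- 4 rose, *LEU3*, *ARG81*, *ARG82* and *BAS1* (5.7% of all genes rose). None of the 21 fell, where 6.04% of all genes fell in *rrp6Δ* and 7.04% in Rrp6exo-. Arg82 is an inositol polyphosphate kinase that also stabilises the ArgR-Mcm1 complex, and *ARG82* had the largest change of the list. Its 499.0 and 484.5 scaled counts in WT compare with 709.1 and 688.7 in Rrp6exo- and 775.3 and 817.7 in *rrp6Δ* (log2 0.51 and 0.69). The kinase gene *GCN2* did not pass, at 0.15 and 0.10. Of 8 further genes of the same pathways, 1 rose in Rrp6exo- (5.7% of all genes rose), *LYS5*, whose product activates Lys2. It had 648.3 and 614.5 scaled counts in WT, 955.9 and 917.2 in Rrp6exo- and 799.3 and 714.0 in *rrp6Δ* (log2 0.57 and 0.26). Without the block limma called none of these genes.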

How the data were processed

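The authors mapped paired reads with STAR to sacCer3, counted them per gene with HTSeq 0.5.3 and divided the counts by DESeq size factors; the strand setting of counting is not given in the sources used here. The deposited values are these scaled counts, a normalised signal. All values (100%) were whole multiples of 1 step per library (tolerance 1e-06), so reads could be recovered. For 6277 genes with a summed scaled count of at least 10, which was every gene listed, limma 3.58.1 (R 4.3.3, empirical Bayes with trend) was fitted to log2(scaled count + 1) over all 6 libraries. Fold changes are on that scale and p-values are Benjamini-Hochberg adjusted over all genes at a threshold of 0.05.

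Same-numbered libraries deviated together across genes (Pearson r 0.547, 0.586 and 0.459 for the 3 pairs of strains), and their library names share a letter, so blocked values, from a fit that adds the replicate number, stand beside the results. Replicates were separate clones of 1 parent strain and differed beyond sampling noise. edgeR 4.0.16 called 11, 6 and 1 genes on the recovered reads (*rrp6Δ* and Rrp6exo- against WT, and the mutants against each other), and DESeq2 1.42.0 was run on the same reads; both were also run with the block. The fits were also run on simulated data with known changes, in which every strain had the same replicate shift. Those changes were larger than most called here, so the simulation is no check on these calls. With 2 libraries a strain, an exact permutation test of 1 gene could not reach 0.05.

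The members and lists were chosen with earlier results of these data known. Full values are given for *GCN4*, the markers, each member that passed in either fit and the largest change of each pathway; *ILV2*, *HIS4* and the Leu3 and Lys14 motifs were picked after values had been seen. Sequences are from the RefSeq R64 genome, the assembly also called sacCer3, and 523 listed IDs had no match in its annotation. The values of 1 member are not reported here; it is included in the counts and medians.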

Additional observations from a re-analysis of the deposited data

How the results depend on the processing

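Members other than *HIS6* had ample reads, and each strain had 2 libraries. The replicate block raised the count of members called from 0 to 8 in *rrp6Δ* and to 6 in Rrp6exo- against WT. The share of all genes called went from 0.175% to 11.5% and from 0.112% to 12.7%. edgeR with the replicate block gave 8 and 7 (11.4% and 12.7% of all genes). DESeq2 gave 6 and 4 (8.03% and 8.28%), and with the block 13 and 9 (12.7% and 13.2%). Between the mutants DESeq2 with the block called 3 (1.96%). Added after the data had been seen, scaling to the same total with the block gave 7 and 8 members called. Scaling to the same upper quartile with the block gave 8 and 7. The shares of all genes called under these scalings are not given here, so these counts have no background beside them.

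Leaving out 1 library at a time, with or without the block, gave 0 to 23 members called in *rrp6Δ*, 0 to 16 in Rrp6exo- and 0 to 9 between the mutants, where 0.0159% to 34.8%, 0% to 27.6% and 0.0159% to 10.2% of all genes were called. The members' median in *rrp6Δ* then ranged from -0.24 to -0.062, and with the block it was -0.21 without replicate 1 and -0.091 without replicate 2 of that strain. In Rrp6exo- it ranged from -0.074 to 0.022, and with the block it was -0.046 and 0.018 without WT replicate 1 and 2 and 0.038 and -0.0689 without Rrp6exo- replicate 1 and 2. Scaling to the same total moved the medians to -0.0027 and 0.098, with or without the block.

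Directions turned for 5 uncalled values of the members described in full, and scaling to the same total left 23 of 44 members below 0 in *rrp6Δ* instead of 35, and 15 instead of 25 in Rrp6exo-. In *rrp6Δ*, *BAT2* came to 0.064 and *LYS2* to 0.0198 after scaling to the same total, and *LYS1* ranged from -0.068 to 0.26 as libraries were left out. In Rrp6exo-, *ILV1* ranged from -0.031 to 0.078 as libraries were left out and was -0.077 with the block and without WT replicate 1. *ILV6* came to 0.0026 after scaling to the same total, and to 0.034 with the block and without replicate 1 of that strain. The cause was not tested. Pseudocounts of 0.5 and 10, the filters, the fit without a variance trend and the fit to the 4 libraries compared left the counts of members called without the block at 0.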

Other observations

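Glutamate and glutamine supply the pathways above with nitrogen, and their synthesis genes were listed together with those of asparagine and proline. Of these 9 genes, 3 fell in *rrp6Δ* in limma with the replicate block (*GDH1*, *GLN1* and *ASN2*, where 6.04% of all genes fell). In Rrp6exo- 5 fell (*GDH1*, *GDH3*, *GLN1*, *ASN2* and *PRO3*, where 7.04% of all genes fell). None of the 9 passed without the block. *GDH1*, the main NADPH-dependent glutamate dehydrogenase gene, had 23755.1 and 21613.5 scaled counts in WT, 14363.5 and 11994.7 in Rrp6exo- and 13542.1 and 12434.6 in *rrp6Δ*, or 58.1% and 57.3% of WT (adjusted p = 0.00162 and 0.00255). *GLT1*, the glutamate synthase gene, moved the other way. It had 56804.5 and 57719.2 in WT, 80007.4 and 80705.3 in Rrp6exo-, where it rose to 140% (adjusted p = 0.0211), and 68371.4 and 69022.1 in *rrp6Δ*, where it did not pass (adjusted p = 0.108).

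Among 14 amino acid permeases, *GAP1*, the general permease, fell in both mutants, from 6782.6 and 6525.5 scaled counts in WT to 3823.5 and 3710.5 in Rrp6exo- and 4542.5 and 3929.1 in *rrp6Δ* (adjusted p = 0.00134 and 0.00451 with the block in limma). *DIP5*, the dicarboxylic amino acid permease, fell in Rrp6exo- (log2 -0.43). Of 4 genes of arginine and proline breakdown, the arginase gene *CAR1* fell in both, to 65.5% and 65.6% of WT, and the ornithine transaminase gene *CAR2* fell in *rrp6Δ* to 67.9%. The proline oxidase gene *PUT1* rose in Rrp6exo- (log2 0.40), although its replicates were far apart in every strain, at 646.3 and 1744.7 in WT and 772.3 and 2560.6 in Rrp6exo-. Over all genes, 6.04% fell in *rrp6Δ* with the block, and in Rrp6exo- 7.04% fell and 5.7% rose.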
